A study of Mus musculus with 10 samples.

Results

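The nuclear genes for the subunits of the mitochondrial respiratory chain, and for some of the factors that assemble it, were followed on 10 microarrays of sorted mouse microglia. Genes were taken by symbol (beginning with Nduf, Sdha, Sdhb, Sdhc, Sdhd, Uqcr, Cox4 to Cox8 or Atp5), each through the brightest probe naming only that gene. The array named 93 such genes, and 88 of them were kept because 2 or more arrays were above the median log2 intensity of the whole table, 5.27 (38.5 as linear intensity). They stood among 10792 genes kept by the same filter, of 19749 named on the array. The kept genes were 6 core subunits, 28 accessory subunits and 7 assembly factors of complex I, 4 subunits and 4 assembly factors of complex II, 8 subunits of complex III, 11 subunits and 3 tissue isoforms of complex IV, and 17 subunits of complex V.

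The mice were C57BL/6 males, 8 to 12 weeks old, either wild type (WT) or Trem2-/-, which lack a lipid-sensing receptor of microglia. Cuprizone, a copper chelator whose feeding kills oligodendrocytes and strips axons of myelin, was given at 0.2% of the diet for 4 or 12 weeks, and separate mice were returned to normal food for 2 weeks of recovery after either period. Each genotype had 1 array for a control without cuprizone, 2 arrays on cuprizone and 2 arrays in recovery, with 1 of each 2 titled 4 weeks and the other 12 weeks. The submitters' sample numbers fall into 2 runs. The first holds 6 arrays, namely the controls and the 4-week libraries, and the second the 4 arrays of the 12-week libraries, so feeding time and run cannot be told apart and no control lies in the second run. The Trem2-/- cuprizone library titled 12 weeks carries a time label of 4 weeks and was counted as 12 weeks. No label says how many animals stand behind a library, and the p-values measure only the spread between these libraries. Cells were sorted into lysis buffer and 2 ng of RNA was amplified per array. The sources used here do not give the sort markers, the design of the Trem2 allele or the pooling of animals.

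Complexes I and II pass electrons from NADH and succinate to ubiquinone, complex III passes them on to cytochrome c, and complex IV gives them to oxygen. Complexes I, III and IV pump protons across the inner mitochondrial membrane, and complex V, the ATP synthase, uses the returning protons to make ATP. Microglia can draw on both this oxidative route and glycolysis, and their balance is known to differ between resting and activated cells. Subunits encoded in mitochondrial DNA were not analysed here.

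Trem2 lay between 10.66 and 10.81 log2 in the 5 WT arrays and between 7.26 and 7.85 in the 5 Trem2-/- arrays, so each library matched its genotype label. The 9 microglial markers on the array had medians of 10.78 to 11.55 per array. Markers of oligodendrocytes, astrocytes, neurons and endothelium had medians of 4.16 to 5.68, near or below the table's median. Below it on all arrays were 2 of 5 oligodendrocyte, 2 of 6 astrocyte, 4 of 6 neuron and 3 of 5 endothelial markers. Others stood above it on all arrays, among them Slc1a3 (6.78 to 7.97), Cnp (6.77 to 7.61), Mbp (5.89 to 6.71) and Pecam1 (5.42 to 6.51). The 6 neutrophil markers had medians of 7.57 to 10.16 in the first run and 4.07 to 5.11 in the second, and the 4 monocyte markers 5.45 to 6.17 and 3.92 to 4.50.

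Of the comparisons made, respiratory chain genes passed the test only between the runs of arrays, and in both directions. Of the 7 members whose difference passed in every fit that left out 1 array, 4 had a promoter window in the RefSeq table, and these are shown so that members higher and lower in the second run can be set side by side. The windows are RefSeq's, on the GRCm38.p6 assembly, from 250 bases before to 50 bases after the annotated start. They are written 5′ to 3′ on the gene's strand, and capitals mark matches, on either strand, to the motifs CCGGAAG of the ETS family, GCATGCGC of NRF1, AAGATGGC of YY1, GGGCGG of the SP family, AAGGTCA of the ERR family and the TATA box TATAAA. Atp5md and Ndufa6 were higher in the second run, Uqcr11 and Uqcr10 lower.
Atp5md, chr19:47090598-47090897, minus strand: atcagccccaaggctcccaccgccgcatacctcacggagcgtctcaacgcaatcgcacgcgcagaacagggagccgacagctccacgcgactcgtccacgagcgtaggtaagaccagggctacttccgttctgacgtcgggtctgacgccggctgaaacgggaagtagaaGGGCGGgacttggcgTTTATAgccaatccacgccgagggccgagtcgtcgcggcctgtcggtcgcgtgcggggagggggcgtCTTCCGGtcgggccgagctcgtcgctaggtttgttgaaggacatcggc
Ndufa6, chr15:82354242-82354541, minus strand: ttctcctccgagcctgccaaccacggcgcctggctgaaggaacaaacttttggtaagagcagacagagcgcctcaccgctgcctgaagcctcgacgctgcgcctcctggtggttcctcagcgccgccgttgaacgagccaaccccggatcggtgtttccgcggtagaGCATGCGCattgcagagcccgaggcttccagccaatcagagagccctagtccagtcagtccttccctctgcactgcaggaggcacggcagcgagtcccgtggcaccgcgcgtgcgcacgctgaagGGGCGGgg
Uqcr11, chr10:80406772-80407071, minus strand: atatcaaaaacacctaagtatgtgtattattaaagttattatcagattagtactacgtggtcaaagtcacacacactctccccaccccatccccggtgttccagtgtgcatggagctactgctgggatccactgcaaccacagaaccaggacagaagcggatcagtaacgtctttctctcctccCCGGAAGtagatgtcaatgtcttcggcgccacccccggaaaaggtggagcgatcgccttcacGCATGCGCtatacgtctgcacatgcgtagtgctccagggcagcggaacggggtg
Uqcr10, chr11:4704295-4704594, minus strand: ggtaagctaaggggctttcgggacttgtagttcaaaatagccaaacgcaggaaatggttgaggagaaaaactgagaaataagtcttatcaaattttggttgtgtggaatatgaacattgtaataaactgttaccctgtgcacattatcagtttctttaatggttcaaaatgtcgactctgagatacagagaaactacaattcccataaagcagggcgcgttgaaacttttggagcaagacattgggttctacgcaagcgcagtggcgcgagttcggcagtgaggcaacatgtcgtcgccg

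Matches marked in the Atp5md window were 1 each for the ETS family, the SP family and the TATA box. The Ndufa6 window held 1 NRF1 and 1 SP family match, the Uqcr11 window 1 ETS family and 1 NRF1 match, and the Uqcr10 window none of the 6 motifs. Promoter windows were listed for 75 of the 88 genes, 80 windows in all. The ETS family motif stood in 26.3% of the members' windows, 17.5% of the windows of all genes tested and 8.86% of all windows listed. The NRF1 motif stood in 15% of the members' windows, against 5.18% and 2.71%, and the YY1 motif in 12.5%, against 4.56% and 2.75%. The ERR family motif stood in 8.75%, against 3.17% and 4.72%, the SP family motif in 46.3%, against 61.7% and 35.7%, and the TATA box in 10%, against 7.28% and 13.6%. Of the members that differed between the runs, 20 had a window. The SP family motif stood in 7 of the 8 windows of members higher in the second run and in 3 of the 16 windows of members lower in it. In the same order, the ETS family motif stood in 2 and 2, NRF1 in 1 and 1 and YY1 in 1 and 2. The ERR family motif stood in 0 and 2 and the TATA box in 1 and 3. These windows belong to 7 and 13 genes, chosen by their run difference in these data, and the split was not tested. The median GC content of those windows was 61.5% and 55.2%, beside 58.7% over all members' windows and 60.7% over the windows of genes tested. A match here is a description of letters and not of a bound site.

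Between the runs, 24 of the 88 genes passed the test (limma, Benjamini-Hochberg adjusted p under 0.05 over all 10792 genes), 9 higher and 15 lower in the second run. This is 27.3% of the members, beside 20.3% of all genes tested, of which 8.22% were higher and 12.1% lower. The comparison used the 8 cuprizone and recovery arrays as 4 pairs of the same genotype and diet phase. The median difference of the 88 genes was -0.05 log2 and that of all genes -0.04, and both were slightly above 0 after quantile normalization (0.01 and 0.002). The members' differences thus spread on both sides of a centre shared with all genes, with an SD over genes of 0.37. The 4 arrays of one run did not overlap with the 4 of the other for 20 of the 88 genes, or 22.7%, beside 23.6% of all genes. As given above, neutrophil and monocyte markers also moved with the run, and the 6 border macrophage markers had medians of 7.96 to 8.36 in the 4 fed arrays of the first run and 6.88 to 7.10 in the second. The part of these markers in the members' differences was not tested. In RNA from a sorted pool, fewer cells of a type and less RNA per cell cannot be told apart.

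**Figure D1:**
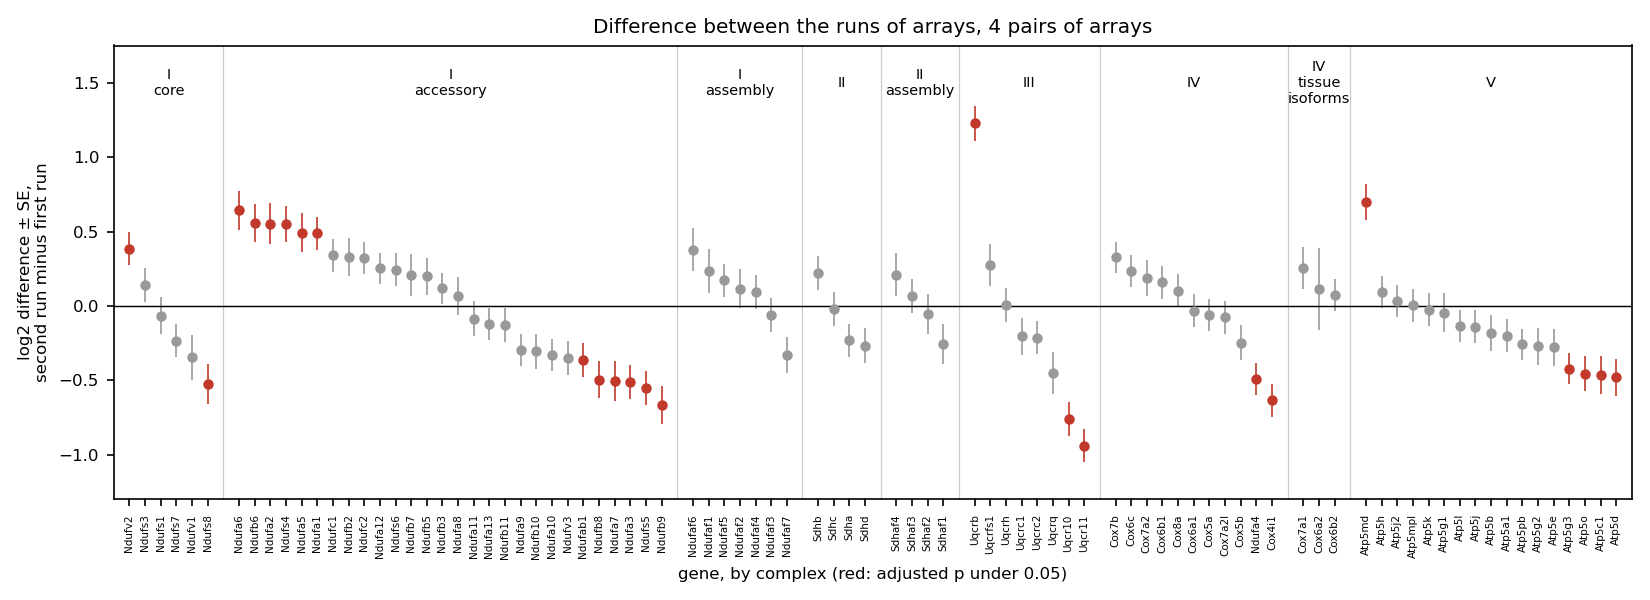
Log2 difference between the second and the first run (vertical axis, points with SE from limma, 4 pairs of arrays) for each of the 88 respiratory chain genes, grouped by complex, with red points for an adjusted p under 0.05. Uqcrb at 1.23 and Uqcr11 at -0.94, both in complex III, are the highest and lowest points, and no assembly factor is red.

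Complex III held both extremes. Uqcrb, a small subunit of complex III near its ubiquinone site, measured 9.09 and 8.65 log2 in the first run's WT and Trem2-/- cuprizone arrays and 8.42 and 8.31 in its recovery arrays. In the second run the same 4 groups measured 10.07, 9.76, 9.83 and 9.72. All 4 arrays of the second run were above all 4 of the first, and the difference was 1.23 ± 0.12 (SE, adjusted p = 0.00037). The control arrays, which the comparison did not use, measured 8.52 (WT) and 8.58 (Trem2-/-), inside the range of the first run. A less bright probe of Uqcrb differed by 1.20 and the dimmest of its 3 probes by 0.49.

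Uqcr11 and Uqcr10, small subunits at the edge of complex III, differed the other way. Uqcr11 measured 9.93, 9.47, 9.33 and 9.29 in the first run (WT cuprizone, Trem2-/- cuprizone, WT recovery, Trem2-/- recovery) and 8.85, 8.44, 8.40 and 8.58 in the second. The runs did not overlap, and the difference was -0.94 ± 0.11 (SE, adjusted p = 0.00092), with -0.69 at a less bright probe. Uqcr10, in the same order, measured 10.58, 10.23, 9.98 and 9.94 in the first run and 9.81, 9.21, 9.32 and 9.35 in the second, a difference of -0.76 ± 0.12 (adjusted p = 0.0028). In both genes the WT array with 4 weeks of cuprizone was the highest of the 10. The other 5 subunits of complex III did not pass the test. Among them, the 2 core proteins Uqcrc1 and Uqcrc2 differed by -0.20 and -0.21 and the Rieske iron-sulfur protein Uqcrfs1 by 0.27, while Uqcrq, at -0.45, narrowly missed the threshold (adjusted p = 0.051).

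**Figure D2:**
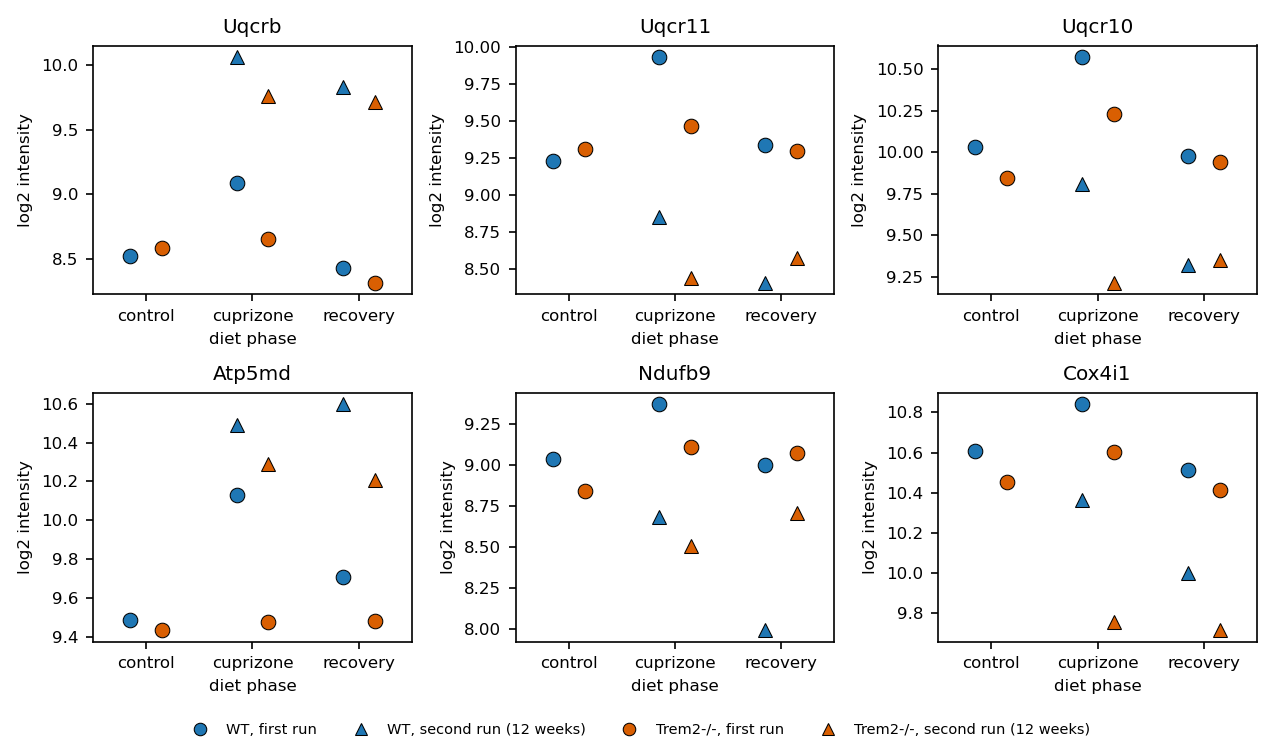
Log2 intensity (vertical axes, one array per point) of 6 genes by diet phase, with WT in blue and Trem2-/- in orange, circles for the first run and triangles for the second. Triangles lie above all circles for Uqcrb and Atp5md and below all circles for Uqcr11, Uqcr10, Ndufb9 and Cox4i1, with the controls among or near the other circles.

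In complex I, 14 of 41 genes differed between the runs, 7 in each direction. Of its 6 core subunits, which carry the path of the electrons, Ndufv2 rose by 0.38 and Ndufs8 fell by 0.53 on the log2 scale. Ndufs1 and Ndufv1, both core subunits, differed by -0.07 and -0.34 without passing. Among the 28 accessory subunits, which surround the core, Ndufa6, Ndufb6, Ndufa2, Ndufs4, Ndufa5 and Ndufa1 rose by 0.64, 0.56, 0.55, 0.55, 0.49 and 0.49. Ndufb9, Ndufs5, Ndufa3, Ndufa7, Ndufb8 and Ndufab1 fell by 0.66, 0.55, 0.51, 0.50, 0.50 and 0.36. Ndufab1 is the mitochondrial acyl carrier protein, and Ndufa6 and Ndufb9 are members of the family of small proteins known to bind it.

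Ndufb9 measured 9.37, 9.11, 8.999 and 9.07 in the first run (WT cuprizone, Trem2-/- cuprizone, WT recovery, Trem2-/- recovery) and 8.68, 8.51, 7.99 and 8.71 in the second, with no overlap (adjusted p = 0.0074). Ndufa6 measured 8.88, 8.49, 8.38 and 8.31 in the first and 9.51, 8.81, 9.39 and 8.91 in the second (adjusted p = 0.0093). For Ndufa6 the runs overlapped, because the WT cuprizone array of the first run exceeded the Trem2-/- cuprizone array of the second, although each of the 4 pairs was higher in the second run. None of the 7 assembly factors of complex I passed. They ranged from -0.33 (Ndufaf7) to 0.38 (Ndufaf6).

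Complex II, the only one of the chain's complexes that is also an enzyme of the citric acid cycle, had no gene past the threshold among its 4 subunits and 4 assembly factors. No gene of the complex had an unadjusted p under 0.05 either. The flavoprotein subunit Sdha differed by -0.23, the iron-sulfur subunit Sdhb by 0.22, and the membrane anchors Sdhc and Sdhd by -0.02 and -0.27. Sdha measured 8.61, 8.64, 8.68 and 8.68 in the first run and 8.40, 8.23, 8.59 and 8.47 in the second.

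In complex IV, Cox4i1 and Ndufa4 fell and the other 9 common subunits did not pass. Cox4i1, the widely expressed isoform of a regulatory subunit, measured 10.84, 10.60, 10.51 and 10.42 in the first run (WT cuprizone, Trem2-/- cuprizone, WT recovery, Trem2-/- recovery) and 10.36, 9.76, 10.0001 and 9.72 in the second. The runs did not overlap and the difference was -0.63 ± 0.11 (SE, adjusted p = 0.0056). Ndufa4, named for complex I but now assigned to complex IV, fell by 0.49 (adjusted p = 0.013). Cox5a differed by -0.06, and Cox7b, the highest of the complex at 0.33, did not pass (adjusted p = 0.053).

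Complex V had 1 gene higher and 4 lower. Atp5md, a small subunit of the membrane part where the synthase forms dimers, measured 10.13, 9.48, 9.71 and 9.48 in the first run and 10.49, 10.29, 10.60 and 10.21 in the second. The runs did not overlap and the difference was 0.70 ± 0.12 (SE, adjusted p = 0.0052). A less bright probe of Atp5md differed by 0.59 and the dimmest of its 3 by -0.09. Atp5d and Atp5c1 of the central stalk fell by 0.48 and 0.46, Atp5o of the peripheral stalk by 0.46, and Atp5g3, an isoform of the proton-carrying ring, by 0.42. The catalytic subunit Atp5b, at -0.18, and the noncatalytic Atp5a1, at -0.20, did not pass.

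For all 9 genes higher in the second run, both control arrays lay nearer to the mean of the first run's fed arrays than to that of the second. The same held for 12 of the 15 lower genes, and for the other 3 it held for 1 of the 2 controls. When any 1 of the 8 arrays was left out, its pair no longer contributed, and 13 to 17 members were called. Without either WT cuprizone array the count was 13 (11.39% of all genes called), and without either WT recovery array 15 (14.95%). It was 14 (9.86%) without either Trem2-/- recovery array and 17 (15.02%) without either Trem2-/- cuprizone array. The shares of all genes in these fits thus also fell below the 20.33% called with all 8 arrays. Uqcrb, Uqcr11, Uqcr10, Cox4i1, Ndufb9, Ndufa6 and Atp5md kept their call in each of these fits. Ndufv2 and Ndufab1 kept theirs in 0 of the fits. Over 6 other processings of the values, however, Atp5md kept its call in 5, Ndufv2 in 5 and Ndufab1 in 2. The dimmest probe of Atp5md differed by only -0.09 between the runs. When the library whose labels conflict was taken as 4 weeks, 0 members were called, and 1.72% of all genes were. In that fit both Trem2-/- cuprizone arrays counted as 4 weeks, so the difference between them entered the spread. Uqcrb and Uqcr11 differed by 1.26 and -0.91 there (limma, adjusted p = 0.051 and 0.075). The run difference did not pass as unlike between genotypes for any member (0 called of 88, 1 with an unadjusted p under 0.05; 0% of all genes), or between recovery and cuprizone (0 called, 2 with an unadjusted p under 0.05; 0% of all genes). The members with the smallest p in these interactions were Ndufb7 (-0.57 ± 0.23 SE) for genotype and Ndufa2 (0.52 ± 0.22 SE) for phase.

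**Figure D3:**
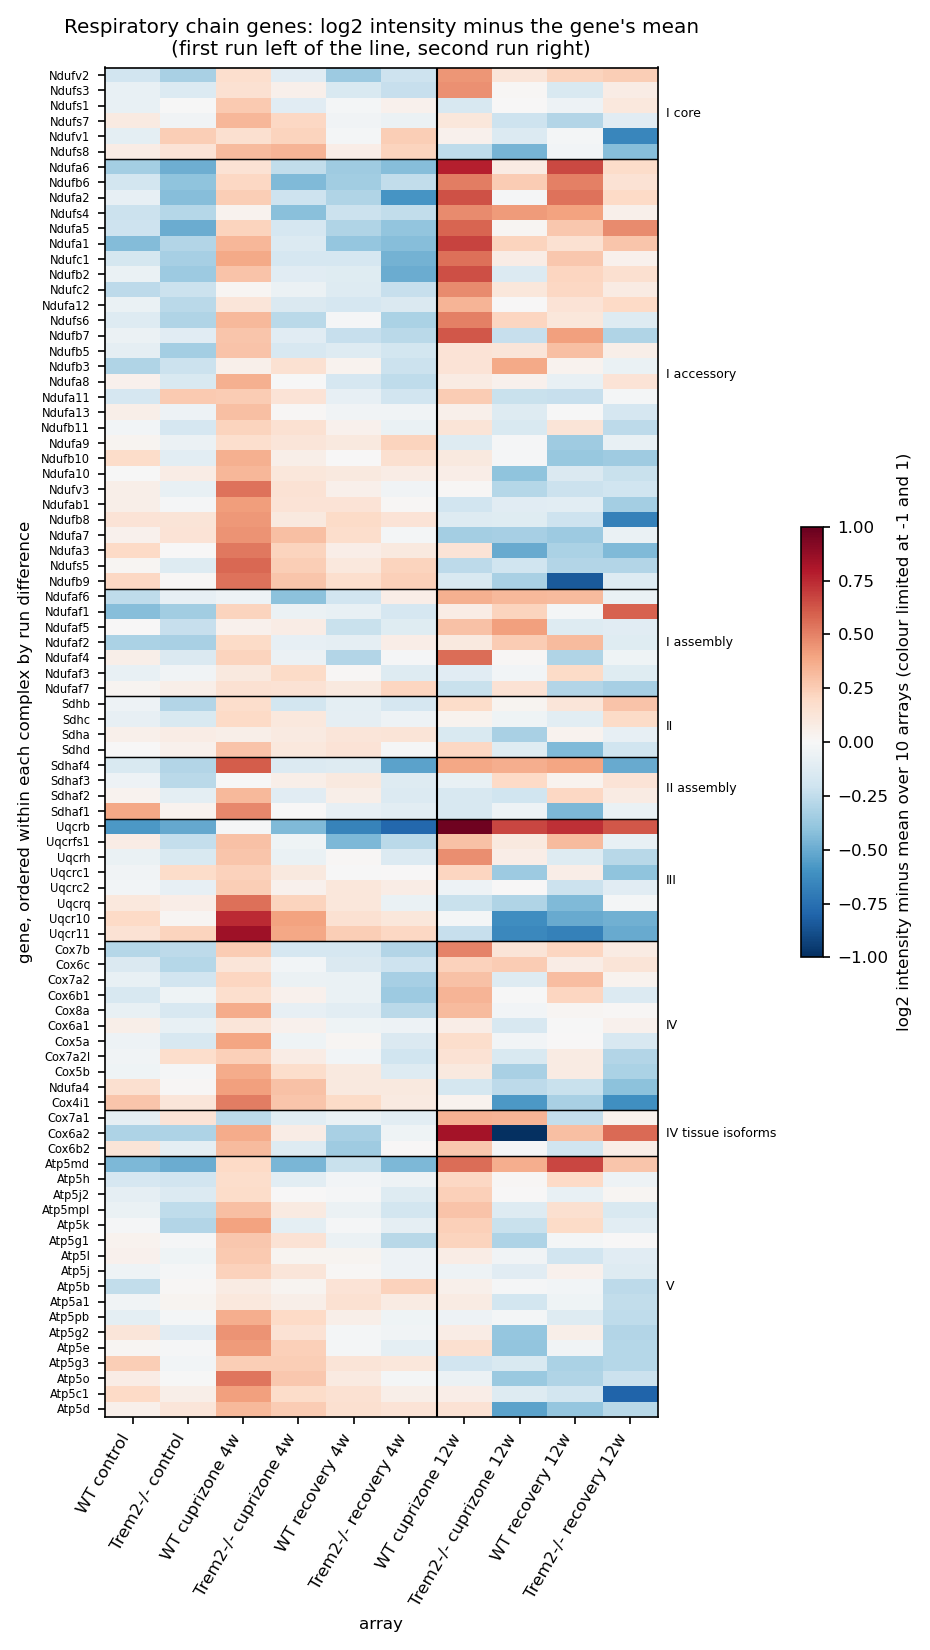
Log2 intensity of each of the 88 genes (rows, by complex and within it by run difference) on each of the 10 arrays (columns), as the difference from the gene's mean, with colours limited at -1 and 1. Columns right of the vertical line are the second run, and within complex I accessory subunits and complex III the top rows are red and the bottom rows blue there. The WT array with 4 weeks of cuprizone is red in most rows.

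Between the diet phases no member passed the threshold. The median over the 88 genes was 8.97 log2 in the WT control array, 9.26 and 9.14 in the WT cuprizone arrays of the first and second run, and 8.97 and 8.95 in the WT recovery arrays. In Trem2-/- it was 8.89 in the control, 9.06 and 8.82 on cuprizone and 8.93 and 8.91 in recovery. The WT cuprizone arrays were thus the 2 highest of the 10. The WT array with 4 weeks of cuprizone also had the highest median over all genes, 6.88 against 6.74 to 6.80 in the others. Values after quantile normalization are therefore given below for some comparisons.

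**Figure D4:**
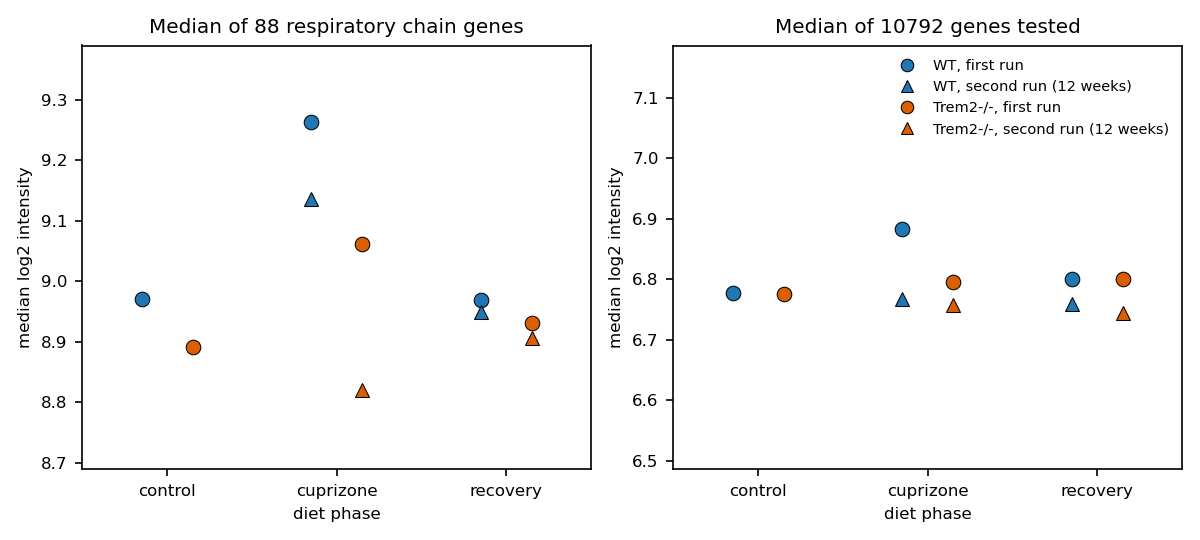
Median log2 intensity per array of the 88 respiratory chain genes (left) and of the 10792 genes tested (right), by diet phase, with WT in blue, Trem2-/- in orange, circles for the first run and triangles for the second. Both vertical axes span the same range of values. The WT cuprizone arrays, at 9.26 and 9.14, are the highest on the left.

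In WT microglia on cuprizone, 79 of the 88 genes were above the WT control, with a median difference of 0.23 log2 beside 0.01 for all genes. None passed the test, while 0.148% of all genes did, and 2 members had an unadjusted p under 0.05. With the run as a block the median was 0.28 and 85 genes were above, still with 0 called (5 with an unadjusted p under 0.05; 0.973% of all genes called). Within the first run alone it was 0.32 with 87 of 88 above, and 0.21 with 81 above after quantile normalization. Against the 12-week array alone, which lies in the other run, it was 0.19 with 59 above. Medians by group were 0.30 for complex I, 0.22 for complex II, 0.19 for complex III, 0.32 for complex IV and 0.22 for complex V. All rest on 1 control array. Other markers moved beside them. Microglial markers had a median of 11.46 in the WT control and 10.997 and 10.78 on cuprizone, and the 6 border macrophage markers 6.96 in the control, 8.36 after 4 weeks and 6.88 after 12 weeks, and their part in the members' difference was not tested.

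The members with the smallest p in that comparison were Ndufa1, Cox7b, Ndufc1, Sdhaf4 and Ndufs6. Ndufa1, an accessory subunit needed for the membrane arm of complex I, measured 8.93 in the control and 9.70 and 10.05 on cuprizone, a difference of 0.94 ± 0.37 (SE, adjusted p = 0.998). Cox7b, a small complex IV subunit, measured 10.44 in the control and 10.97 and 11.22 on cuprizone (0.66 ± 0.29 SE). Both cuprizone arrays exceeded the control in each gene, and the 12-week array was the higher. Ndufc1, Sdhaf4 and Ndufs6 differed by 0.64, 0.65 and 0.54. Between the 4-week cuprizone array and the control, the Sdhaf4 probe used differed by 0.76 and a dimmer one, near the table's median, by -0.01. Dimmer probes of Ndufc1 and Cox7b differed there by 0.64 and 0.44, beside 0.55 and 0.53 at the probes used. Other subunits named above differed by -0.10 (Sdha), -0.01 (Cox4i1), 0.12 (Ndufs1), 0.19 (Ndufv1), 0.26 (Uqcrc1), 0.32 (Atp5b) and 0.34 (Cox5a). These differences set the mean of 1 cuprizone array of each run against a control of the first run, so they hold part of the run difference. Cox4i1 measured 10.61 in the WT control, 10.84 in the first run's cuprizone array and 10.36 in the second's.

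In Trem2-/- microglia on cuprizone, 55 of 88 genes were above their control, with a median of 0.09 beside 0.01 for all genes. None passed and none had an unadjusted p under 0.05, with 0% of all genes called. The median was 0.10 with the run as a block (0 called; 0.12% of all genes) and 0.15 within the first run, where 75 of 88 were above. The smallest p belonged to Ndufb3 (0.48 ± 0.22 SE), Ndufaf5 (0.47), Sdhaf3 (0.40), Cox6c (0.40) and Ndufaf2 (0.41). Ndufb3 measured 6.23 in the control and 6.60 and 6.83 on cuprizone. The border macrophage markers had medians of 6.28 in the Trem2-/- control and 7.96 and 7.01 on cuprizone, and the microglial markers 11.40 and then 11.37 and 11.24, and their part was not tested.

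The difference between the genotypes in the response to cuprizone had a median of -0.17, with 73 of 88 genes negative, and 0 genes called (0 with an unadjusted p under 0.05; 0.00927% of all genes). With the run as a block 0 were called as well (1 with an unadjusted p under 0.05; 0.0834% of all genes). Without the WT cuprizone array of 4 weeks, or without the Trem2-/- cuprizone array of 12 weeks, the median was -0.09. Ndufa11 had the smallest p (-0.73 ± 0.34 SE), followed by Cox6a2 (-1.15), Uqcrc1 (-0.58), Cox7a2l (-0.45) and Ndufb7 (-0.57).

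In WT recovery, 84 of the 88 genes were below the WT cuprizone arrays, with a median of -0.24 beside -0.002 for all genes. None passed, 4 had an unadjusted p under 0.05, and 0% of all genes were called. With the run as a block 0 passed and 22 had an unadjusted p under 0.05 (0.0649% of all genes called). The median was -0.30 within the first run and -0.15 within the second, each from 1 array per group. The first run's value holds the WT cuprizone array whose median over all genes was the highest, and it was taken without quantile normalization. Microglial markers had medians of 10.997 and 10.78 in the WT cuprizone arrays and 11.40 and 11.04 in WT recovery, and their part was not tested. All 8 subunits of complex III, all 11 of complex IV, all 17 of complex V and all 34 core and accessory subunits of complex I were lower, as were 3 of the 4 of complex II. The assembly factors were mixed, 8 of 11 lower.

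This comparison shares the WT cuprizone arrays with the one before it, so the opposite signs are not independent. Ndufaf4, an assembly factor of complex I, measured 7.02 and 7.36 on cuprizone and 6.50 and 6.50 in recovery, a difference of -0.69 ± 0.19 (SE, adjusted p = 0.999), with 6.86 in the control. Cox6b2, known as a testis isoform and here near the table's median, measured 5.79 and 5.75 on cuprizone and 5.12 and 5.27 in recovery. In both genes the groups did not overlap. Uqcrh, the hinge subunit of complex III, differed by -0.43, Ndufs3 by -0.46 and Cox8a by -0.39.

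In Trem2-/- recovery, 69 of 88 genes were below the Trem2-/- cuprizone arrays, with a median of -0.07, or -0.13 within the first run and -0.03 within the second. None passed, with or without the run as a block (0% of all genes in both), and 1 had an unadjusted p under 0.05, or 3 with the block. That gene was Sdhaf4, an assembly factor for the flavoprotein of complex II, at 6.30 and 6.80 on cuprizone and 5.90 and 5.93 in recovery (-0.64 ± 0.25 SE). Ndufb3, Cox6a2, Ndufaf5 and Cox6b1 came next, at -0.41, 0.81, -0.36 and -0.27. The genotypes' difference in recovery against cuprizone had a median of 0.18, with 68 of 88 positive and 0 called (3 with an unadjusted p under 0.05, or 6 with the block; 0% of all genes in both).

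The members' medians in recovery lay close to the controls in both genotypes. The median difference from control was 0.04 in WT, with 49 genes above and 39 below, and 0.02 in Trem2-/-, with 47 above and 41 below. None passed and none had an unadjusted p under 0.05 (0% of all genes in each). With the run as a block 0 passed, with 1 unadjusted p under 0.05 in WT and 0 in Trem2-/- (0.176% of all genes called in each). The medians take in recovery arrays of the second run, which has no control, and opposite run differences can offset each other in them. Uqcrb measured 9.72 or more in the second run's arrays, against 8.52 and 8.58 in the controls. Uqcr11 measured 8.85 or less there, against 9.23 and 9.31. The smallest p belonged in WT to Sdhaf1 (-0.65 ± 0.30 SE) and in Trem2-/- to Cox7a2l (-0.42 ± 0.22 SE), a factor known for joining complexes III and IV. Others with a small p were Cox6b2, Ndufaf2, Ndufaf4 and Ndufb3 in WT, at -0.40, 0.43, -0.36 and 0.33, and Ndufaf1, Ndufa11, Uqcrc1 and Ndufa5 in Trem2-/-, at 0.55, -0.37, -0.38 and 0.54. The difference between genotypes in this contrast had a median of -0.02, with 0 called (0 with an unadjusted p under 0.05, also with the block; 0% of all genes in both).

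On cuprizone, 80 of 88 genes were lower in Trem2-/- than in WT, with a median of -0.24 beside 0.001 for all genes. None passed, 3 had an unadjusted p under 0.05, and 0.334% of all genes were called. With the run as a block 0 passed and 21 had an unadjusted p under 0.05 (1.42% of all genes called). The median was -0.27 within the first run and -0.23 within the second, and -0.20 after quantile normalization. Without the Trem2-/- cuprizone array of 12 weeks it was -0.14, with 67 of 88 lower. The microglial markers had medians of 10.997 and 10.78 in the WT cuprizone arrays and 11.37 and 11.24 in the Trem2-/- ones, with no overlap, and their part in the members' difference was not tested. In recovery 56 of 88 were lower, with a median of -0.08 and 0 called (1 with an unadjusted p under 0.05; 0.0278% of all genes). With the run as a block 0 were called there too (1 with an unadjusted p under 0.05; 0.0927% of all genes).

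Cox6a2, the muscle isoform of a complex IV subunit, had the largest genotype difference on cuprizone, and it rests on 1 library. It measured 8.02 and 8.48 in the WT cuprizone arrays and 7.72 and 6.48 in the Trem2-/- ones, a difference of -1.15 ± 0.42 (SE, adjusted p = 0.952). The value of 6.48, in the library of conflicting labels, is the lowest of the 10, and the other 9 lay between 7.33 and 8.48. Atp5k, a membrane subunit of complex V, measured 10.25 and 10.09 in WT and 9.76 and 9.63 in Trem2-/- (-0.48 ± 0.18 SE), with no overlap. Ndufb7, Ndufb2 and Ndufaf4 differed by -0.62, -0.59 and -0.41. In recovery the smallest p belonged to Sdhaf4 (-0.65 ± 0.25 SE), followed by Cox6b2, Cox6b1, Ndufb7 and Cox7a2l at 0.31, -0.32, -0.37 and -0.27.

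Over the 5 diet conditions, each a pair of arrays from the same run, 78 of 88 genes were lower in Trem2-/-, with a median of -0.13 beside -0.002 for all genes. None passed (smallest adjusted p = 0.124), while 0.259% of all genes did, and 19 members had an unadjusted p under 0.05. The pairs' medians were -0.08 in the controls, -0.27 and -0.23 on cuprizone for 4 and 12 weeks, and -0.07 and -0.11 in recovery after them. The genes lower in all 5 pairs numbered 24 of 88, or 27.3%, beside 6.1% of all genes. None was higher in all 5, beside 515 of all 10792 genes. The median of the microglial markers was higher in Trem2-/- in 4 of the 5 pairs. In the 3 pairs off cuprizone alone, 26 of 88 were lower in all and 2 higher in all, beside 1472 lower and 1319 higher in all 3 among the 10792 genes. All 8 subunits of complex III, all 11 common subunits of complex IV and all 17 of complex V were lower on average, with medians of -0.19, -0.21 and -0.14.

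**Figure D5:**
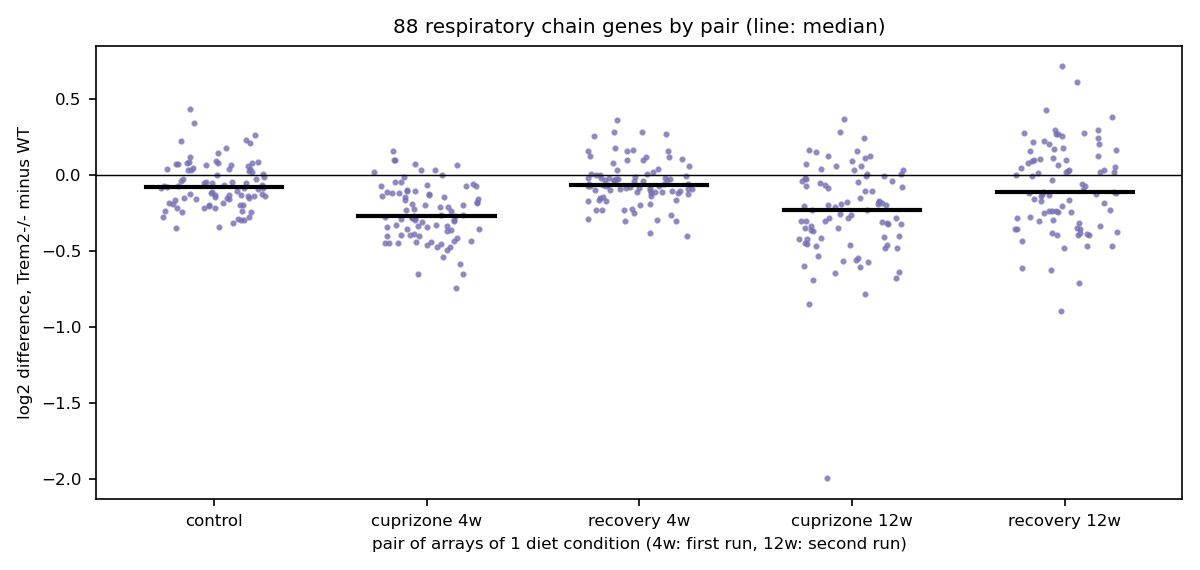
Log2 difference between the Trem2-/- and the WT array (vertical axis) for each of the 88 genes (points) in each of the 5 pairs of arrays of 1 diet condition, with the median as a line. All 5 medians lie below 0, between -0.27 and -0.07, and the lowest point, in the pair with 12 weeks of cuprizone, is Cox6a2.

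Ndufa2, an accessory subunit of complex I with the smallest p for genotype, measured 10.02, 10.35, 9.81, 10.74 and 10.64 in WT (control, 4 weeks of cuprizone, recovery from it, 12 weeks of cuprizone, recovery from it). In Trem2-/- it measured 9.68, 9.90, 9.51, 10.09 and 10.31 in the same order. Each Trem2-/- array was below its WT partner, though the genotypes overlapped across conditions, and the difference was -0.41 ± 0.09 (SE, adjusted p = 0.124). Ndufc1, Ndufb2, Ndufs6 and Atp5k were also lower in 5 of 5 pairs, by 0.34, 0.38, 0.32 and 0.32 on average, with adjusted p of 0.221 to 0.251.

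Of the isoforms of complex IV that are known from other tissues, Cox4i2, Cox7b2, Cox8b, Cox8c and Ndufa4l2 did not pass the filter on dim genes. Cox4i2, just outside it, lay between 4.75 and 5.30 with 1 array above the table's median, and Cox6b2, just inside, between 5.12 and 5.79 with 9 arrays above. Cox7a1, a muscle isoform, lay between 5.28 and 5.89. Of their common counterparts, Cox6a1 lay between 11.52 and 11.80, Cox6b1 between 11.49 and 12.20, Cox7a2 between 9.09 and 9.72, Cox7a2l between 10.46 and 10.99 and Cox8a between 9.13 and 9.77. The ring isoforms Atp5g1, Atp5g2 and Atp5g3 of complex V lay between 8.70 and 9.28, 11.43 and 12.26, and 9.66 and 10.22. Levels of different probes are not compared with each other.

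Several members had more than 1 probe, 18 genes with 43 probes in all, and the brightest and the next brightest probe gave run differences of the same sign in 15 of them. In Atp5g1, Atp5h and Atp5pb the signs were opposite, and in Atp5g1, Atp5g2 and Ndufs3 the probes differed by more than 0.5 log2. RefSeq also lists 19 pseudogenes whose symbols begin with these prefixes, so signal from near-identical copies is uncertain for single probes.

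Other gene lists of energy metabolism give the members' values a setting. In WT cuprizone against control, the 14 glycolytic genes had a median of 0.49 (12 above, 0 called, 4 with an unadjusted p under 0.05), the 15 citric acid cycle genes 0.11, the 76 mitochondrial ribosomal protein genes 0.15 and the 54 cytosolic ribosomal protein genes 0.11, with 0 called in each. For genotype over 5 conditions the medians were -0.24 (11 of 14 lower), -0.05 (10 of 15), -0.08 (60 of 76) and -0.10 (51 of 54), again with 0 called. Ribosomal protein genes thus also leaned the members' way. Between the runs 8.22% of all genes tested were higher in the second and 12.1% lower, and the counts that follow stand beside these shares. Of the 14 glycolytic genes 2 rose, and of the 15 citric acid cycle genes 2 fell (Idh3b by 0.65 and Suclg1 by 0.56). Of the mitochondrial ribosomal genes 4 rose and 12 fell, and of the cytosolic ones 2 rose and 12 fell. Of 23 other assembly factors 3 rose, among them the complex IV factors Cox20 (0.68) and Cox17 (0.42), and Atpaf2, which assembles complex V, fell by 0.71. Of 12 genes of cytochrome c and ubiquinone, Coq10b rose by 0.87 (adjusted p = 0.0038), and cytochrome c itself, Cycs, differed by 0.38 without passing (adjusted p = 0.055).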

How the data were processed

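Gene expression was measured on 10 arrays of sorted mouse microglia. Values as deposited are linear intensity for 24567 probes. The sources used here do not say how the authors summarized, background-corrected or normalized the intensity. Array medians of 37.6 to 39.3 put the columns near a common scale. The number of arrays limits the precision. Log2 was taken with no further scaling. Probes naming 1 gene in the platform's annotation (21259) were kept, with the brightest probe per gene, and genes were tested where 2 or more arrays were above the median of the table. Near that median the signal approaches background, which can compress differences.

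Differences were tested with limma 3.58.1 (lmFit, eBayes) under R 4.3.3, with Benjamini-Hochberg adjustment over 10792 genes and a threshold of 0.05. Diet and genotype contrasts came from 1 fit of 6 group means over 10 arrays, genotype over 5 conditions from 5 pairs, and the run contrast from 8 arrays with group as a block. The fits for the run contrast and for genotype over 5 conditions were tested on simulated data. The contrasts from the fit of 6 group means were not. For each comparison the named genes are those past the threshold (at most 10 per direction) or otherwise the 5 with the smallest p. The extremes of each complex for run, a fixed set of subunits and isoform sets were named as well, but the brightest member per complex was not singled out. For the other lists, up to 3 genes by smallest p were named. The members, lists and tests were chosen with earlier results of these data known. Alternatives covered probe averaging, the filter, scaling, an offset of 16 before the log2, the run as a block, within-run values, the conflicting label and leaving out each array. Quantile normalization within or blocked by run, and the 2 genotype interactions for recovery, were chosen after seeing the data.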

Additional observations from a re-analysis of the deposited data

How the results depend on the processing

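The count of members called between the runs was 22 to 30 over 6 other processings. The processings were probe means, both filters, array medians subtracted, quantile normalization and an offset before the log2. Of the 24 genes, 21 kept their call in all 6. The share of all genes called was lowest without the filter on dim genes, at 11.15% (22 members). It was highest with all arrays required above the table's median, at 26.22% (30 members). The count of members was 13 to 17 when 1 array was left out, with 9.86% to 15.02% of all genes called. It was 0 with the conflicting library counted as 4 weeks, which leaves the Trem2-/- cuprizone group without a second-run array. The median of WT recovery against WT cuprizone was -0.12 under quantile normalization within the second run. In the other comparisons 0 members were called under each alternative that gave a test. Each control group has 1 array, and feeding time and run cannot be told apart.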
